A study of Mus musculus and Homo sapiens with 30 samples.

Results

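The glutathione peroxidase gene Gpx4 and 8 other mouse genes whose products limit lipid radicals were followed through 18 mouse RNA-seq libraries, together with 4 human counterparts in 12 libraries. The mouse genes were Gpx4 (ENSMUSG00000075706), Gpx1 (ENSMUSG00000063856), Gpx8 (ENSMUSG00000021760), Prdx6 (ENSMUSG00000026701), Aifm2 (ENSMUSG00000020085), Coq2 (ENSMUSG00000029319), Vkorc1l1 (ENSMUSG00000066735), Dhodh (ENSMUSG00000031730) and Gch1 (ENSMUSG00000037580). They are 9 of the 56980 gene IDs of the mouse count table. The human genes were GPX4 (ENSG00000167468), AIFM2 (ENSG00000042286), DHODH (ENSG00000102967) and GCH1 (ENSG00000131979), 4 of 61552 IDs. They were chosen by name for what their products do, with earlier results of these data known. Each was found in its table and had enough counts to be tested in every line.

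The study exposed 3 cell lines to medium conditioned by inguinal fat cells. E0771, a mouse mammary cancer line, and NMuMG, a mouse mammary gland epithelial line, had 3 libraries in each of 3 media. SkBr3, a human breast cancer line, had 4 libraries in each. Cells grew for 36 h and were then treated for 16 h with standard growth medium (control), or with a mix of 50% growth medium and 50% secretome of lean or of obese inguinal adipocytes. All lines were kept in DMEM with 10% FBS. For NMuMG the labels also give insulin at 10 mcg/ml and glucose at 4.5 g/L, and they give neither for the other lines. The sample labels list all 3 lines as breast cancer and do not give the species or the animals the adipocytes came from. The control medium held no secretome, so lean against obese is the comparison in which the share of secretome was matched.

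GPX4 is a selenium enzyme that uses glutathione to reduce phospholipid hydroperoxides inside membranes, and its loss lets iron-driven lipid peroxidation kill the cell by ferroptosis. Other routes act beside it. FSP1, the protein of Aifm2, reduces coenzyme Q and vitamin K to forms that trap lipid radicals. DHODH reduces coenzyme Q in the inner mitochondrial membrane while it makes pyrimidines, and GCH1 starts the synthesis of tetrahydrobiopterin, which also traps radicals. The title of the series names ferroptosis, and the question here is which of these routes differed in RNA level between media and between lines.

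The 3 glutathione peroxidases among these genes do not all share the residue that does the chemistry. The coding sequences around the catalytic codon are shown because all 3 genes fell in E0771 and rose in NMuMG with lean against obese secretome. At that codon Gpx8 differs from Gpx4 and Gpx1. Capitals mark the catalytic codon, 45 bases are given for each, and codons are counted from the start codon of the named GENCODE M21 transcript (GRCm38).
Gpx4 (codon 73 of 198): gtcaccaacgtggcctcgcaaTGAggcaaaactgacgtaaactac
Gpx1 (codon 47 of 202): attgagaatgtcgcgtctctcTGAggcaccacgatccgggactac
Gpx8 (codon 79 of 210): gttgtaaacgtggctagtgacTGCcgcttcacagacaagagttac
In Gpx4 and Gpx1 the codon is TGA, read here as selenocysteine, and in Gpx8 it is TGC, which encodes cysteine. The Gpx1 window matched that of Gpx4 at 25 of 45 bases and the Gpx8 window at 24.

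The promoters of the same 3 genes are given for comparison. They are the 250 bases before a start site in the RefSeq promoter table (GRCm38.p6), with capitals for CCAAT or its reverse complement.
Gpx4 (chr10:80053315-80053564, plus strand): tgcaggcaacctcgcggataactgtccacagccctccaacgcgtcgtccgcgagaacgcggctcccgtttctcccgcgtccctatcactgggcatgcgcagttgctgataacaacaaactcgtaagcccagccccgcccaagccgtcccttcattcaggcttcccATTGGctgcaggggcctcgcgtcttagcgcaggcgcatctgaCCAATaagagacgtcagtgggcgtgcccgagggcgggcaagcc
Gpx1 (chr9:108338830-108339079, plus strand): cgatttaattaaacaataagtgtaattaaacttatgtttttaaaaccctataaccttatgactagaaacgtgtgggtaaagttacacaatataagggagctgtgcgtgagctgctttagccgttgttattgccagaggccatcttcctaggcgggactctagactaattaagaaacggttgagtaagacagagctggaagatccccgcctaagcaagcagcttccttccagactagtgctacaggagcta
Gpx8 (chr13:113046389-113046638, minus strand): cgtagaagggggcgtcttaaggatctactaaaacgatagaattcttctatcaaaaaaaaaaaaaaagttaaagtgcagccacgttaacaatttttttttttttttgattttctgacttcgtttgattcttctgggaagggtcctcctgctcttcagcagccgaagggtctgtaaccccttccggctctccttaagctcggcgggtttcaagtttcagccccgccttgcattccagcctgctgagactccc
Gpx4 has 4 start sites in that table, and the window shown ends 77 bases from the start of the transcript Gpx4-202. Both strands were searched for CCAAT, for GGGCGG (the GC box) and for TGACNNNGC (the core of the antioxidant response element), and the matches in these windows did not overlap each other. The Gpx4 window held CCAAT at 85 and 43 bases before the start site and GGGCGG at 117 and 13 bases before it, and the Gpx1 and Gpx8 windows held none of the 3. Matches varied with the start site: the windows at the other Gpx4 start sites held 1, 3 and 0 of CCAAT and 0, 2 and 1 of GGGCGG. Of 32851 mouse promoters of the same length, 33.8% held CCAAT, 32.7% GGGCGG and 10.2% TGACNNNGC. The windows of Gch1, Coq2 and Vkorc1l1 held no TGACNNNGC either, nor did that of Aifm2, which ends 5338 bases from the start of the nearest annotated transcript. A match is a run of letters and not a shown binding site.

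Total counts ranged from 18479433 to 31094119 per library. Replicates of a group differed by more than counting error, with chi-square values of 1.93 to 13.7 for each degree of freedom. On an axis set to 0 at the control mean and 1 at the lean mean of all tested genes, the obese libraries lay between 0.11 and 0.39 in the mouse lines and between 0.15 and 0.35 in SkBr3. Obese replicate 1 lay nearest the lean libraries in every line. SkBr3 lean replicate 3 lay at 0.78, the lowest of the lean libraries. NMuMG expressed at least 6 of 7 epithelial markers above 1 CPM (counts per 1000000 counts of the library) in every medium. E0771 expressed only Krt8 of the 7, with Krt19 at 0 in every library, and 4 of 7 mesenchymal markers. The mesenchymal markers of E0771 summed to 3866 to 3995 CPM in control medium, 3421 to 3742 with obese and 2286 to 2509 with lean secretome, and the part of this in the results below was not tested. The 7 adipocyte markers together stayed at or under 0.261 CPM in every E0771 library. In NMuMG they summed to 0.322 to 0.689 CPM in control medium, 0.330 to 0.960 with obese and 2.03 to 2.08 with lean secretome, where Cidec was above 1 CPM and Lep, Plin1, Cfd, Retn and Pck1 were at 0. Their part in the NMuMG results was not tested. SkBr3 was not checked in this way. In bulk libraries a change in the mix of cells and a change in RNA per cell cannot be told apart.

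Most of the 9 mouse genes were called in each lean comparison of the mouse lines, beside large shares of all genes. Between obese secretome and control medium 1 gene was called in each mouse line, a call lost when some single libraries were left out. Between lean and obese secretome 7 of the 9 mouse genes were called in E0771 at an adjusted p under 0.05 (3 higher, 4 lower with lean), where 52.7% of 13813 tested genes were called (25.8% higher, 26.9% lower). In NMuMG 6 were called (5 higher, 1 lower) against 35% of 15014 genes (17.6% higher, 17.4% lower). In SkBr3 3 of 4 were called (1 higher, 2 lower) against 44.1% of 14874 (21.1% higher, 23.1% lower). Against control medium the lean secretome gave 6 of 9 in E0771 (56.3% of all genes), 5 of 9 in NMuMG (38.2%) and 2 of 4 in SkBr3 (48.8%). Obese against control gave 1 of 9 in E0771 (2.61% of all genes), 1 of 9 in NMuMG (5.01%) and 0 of 4 in SkBr3 (1.16%, and 13.7% at an unadjusted p under 0.05, where 0 of the 4 genes also lay, as with DESeq2). With single libraries left out, the number of all genes called for obese over control, 360 in E0771, 752 in NMuMG and 172 in SkBr3, ran from 79 to 601, from 384 to 893 and from 20 to 655. Large shares of all genes were called in the lean comparisons, so the counts are read beside those shares. The 3 comparisons within a line share libraries, and lean and obese effects against control share the control libraries.

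**Figure D1:**
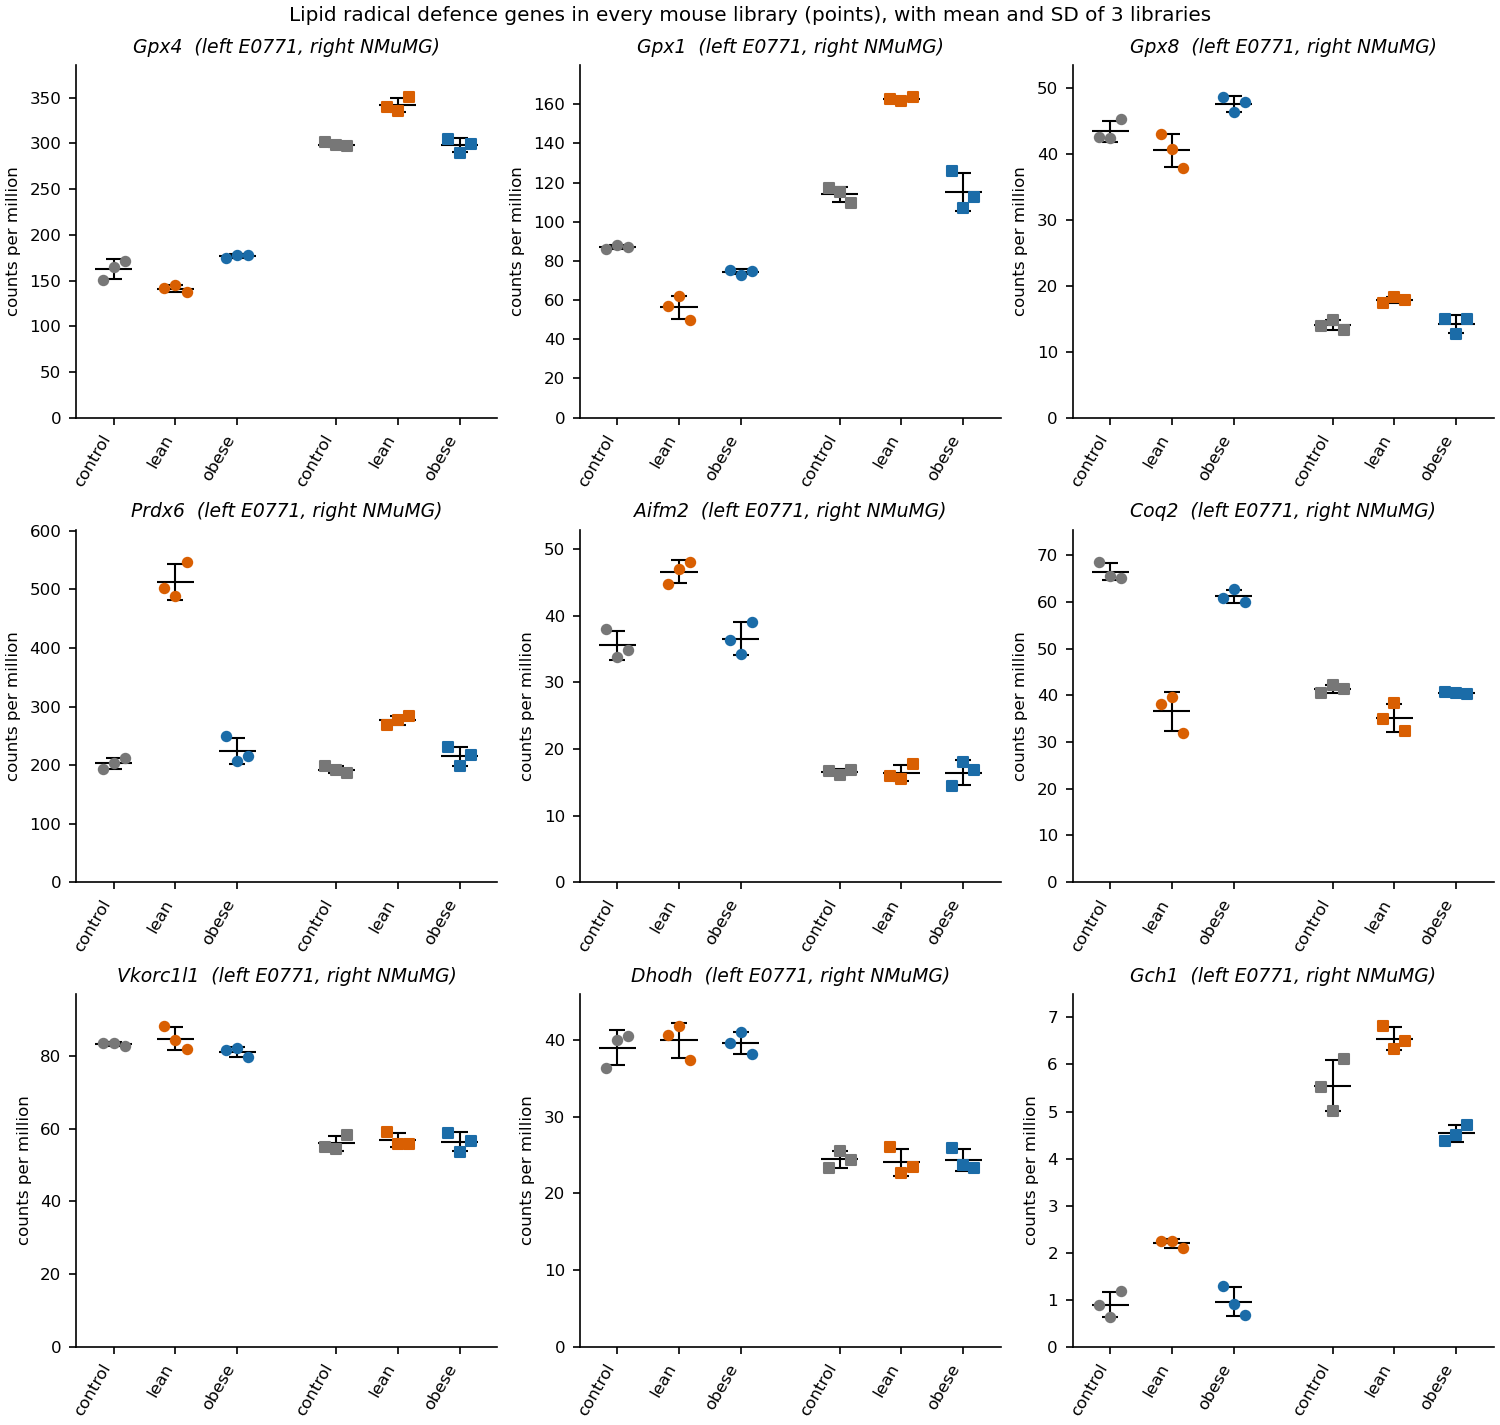
CPM of the 9 mouse genes (vertical axes, each from 0) in every E0771 library (circles, left) and NMuMG library (squares, right), by medium; points are libraries, and bars are the mean and SD of 3 libraries. With lean secretome Gpx4 lay lowest in E0771 and highest in NMuMG, while Prdx6 rose in both lines and Vkorc1l1 and Dhodh overlapped between media in most comparisons.

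Gpx4, the phospholipid hydroperoxidase, fell with lean secretome in E0771 and rose with it in NMuMG. In E0771 its level was 150.6, 164.6 and 171.7 CPM in the control libraries, 141.3, 144.6 and 137.8 with lean secretome and 174.9, 177.5 and 178.4 with obese secretome. All 3 lean libraries lay below all 6 others. The group means were 162.3 ± 10.7 (control), 141.2 ± 3.40 (lean) and 176.9 ± 1.80 CPM (obese; SD, n = 3 each). Lean over obese was -0.33 on the log2 scale (SE 0.04, adjusted p = 8.88e-07), a ratio of 0.795, and that of lean over control was -0.21 (SE 0.04, adjusted p = 0.00026). Obese over control was 0.12 (95% interval 0.03 to 0.21, adjusted p = 0.169). This last value passed the threshold only without E0771 control replicate 3, the highest control library (adjusted p = 0.0380).

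In NMuMG, Gpx4 stood at 301.1, 297.8 and 297.0 CPM in control medium, 340.2, 335.4 and 350.4 with lean and 305.2, 289.7 and 299.0 with obese secretome. The lean libraries were again apart from all 6 others, here above them. Means were 298.7 ± 2.16, 342.0 ± 7.65 and 298.0 ± 7.80 CPM (SD, n = 3 each). The log2 fold change was 0.19 over obese (SE 0.03, adjusted p = 2.66e-05) and 0.20 over control (SE 0.03, adjusted p = 7.57e-06). Obese over control was 0.01, with a 95% interval from -0.05 to 0.08. The change of lean over obese thus differed between the lines by -0.50 (E0771 minus NMuMG, SE 0.06, adjusted p = 2.08e-09).

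A near-identical copy bears on the Gpx4 value. The processed pseudogene Gpx4-ps2 had 115 to 364 counts per mouse library and at most 12.5 CPM, and how reads shared with Gpx4 were assigned is not given in the sources used here. It was not called in any comparison, with an adjusted p of 0.0515 in NMuMG lean over obese. The sum of both genes was 167.3 ± 10.9, 146.1 ± 4.23 and 182.7 ± 1.95 CPM in E0771 (control, lean, obese) and 309.2 ± 1.91, 353.8 ± 8.50 and 308.0 ± 8.39 in NMuMG (SD, n = 3 each). The order of the media was that of Gpx4 alone.

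Gpx1, the cytosolic glutathione peroxidase that acts on hydrogen peroxide and small hydroperoxides, moved with lean secretome in the same direction as Gpx4 in each line and had the larger fitted change. E0771 libraries had 86.3, 88.2 and 86.9 CPM in control medium, 57.0, 61.9 and 50.1 with lean and 75.4, 73.1 and 74.9 with obese secretome. The 3 media did not overlap. The log2 fold change was -0.41 over obese (SE 0.06, adjusted p = 2.51e-06) and -0.64 over control (SE 0.06, adjusted p = 2.13e-09). NMuMG libraries had 117.3, 115.2 and 109.8 CPM in control medium, 162.9, 161.8 and 163.6 with lean and 126.0, 107.3 and 112.8 with obese secretome. Lean lay above all others there, by 0.48 over obese (SE 0.05, adjusted p = 2.2e-09) and 0.52 over control (SE 0.04, adjusted p = 3.58e-10). In E0771 it was also the gene called between obese and control, at -0.23 (SE 0.06, adjusted p = 0.0310), where Gpx4 lay at 0.12 and so on the other side of 0. That call ended when any of the 6 control and obese libraries was left out (adjusted p from 0.0690 to 0.133).

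Gpx8, the endoplasmic reticulum member with cysteine in place of selenocysteine, also fell in E0771 and rose in NMuMG with lean over obese secretome, with fitted changes smaller than those of Gpx1. In E0771 it ranged from 37.9 to 43.0 CPM with lean secretome, from 46.3 to 48.6 with obese and from 42.4 to 45.3 in control medium. Lean and obese did not overlap, but lean and control did. The log2 fold change was -0.24 over obese (SE 0.06, adjusted p = 0.00111) and -0.11 over control (95% interval -0.22 to 0.00, adjusted p = 0.110), which passed the threshold without lean replicate 1 (adjusted p = 0.0419). In NMuMG it ranged from 17.4 to 18.4 CPM with lean, 12.6 to 15.0 with obese and 13.3 to 14.8 in control medium. Lean was higher by 0.32 than obese (SE 0.08, adjusted p = 0.00169) and by 0.35 than control (SE 0.08, adjusted p = 0.000416).

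Prdx6, a peroxiredoxin that can reduce phospholipid hydroperoxides and also has phospholipase activity, rose with lean secretome in both mouse lines. E0771 libraries had 193.9, 204.0 and 212.5 CPM in control medium, 501.9, 488.4 and 547.3 with lean and 249.1, 207.4 and 215.7 with obese secretome. NMuMG libraries had 198.8, 191.4 and 186.2 CPM in control medium, 269.1, 276.5 and 284.0 with lean and 231.1, 198.7 and 216.7 with obese secretome. The lean libraries lay above all others in each line, and obese replicate 1 was the highest obese library in each. Lean over obese was 1.19 in E0771 (SE 0.07, adjusted p = 7.9e-09), a ratio of 2.28, and 0.35 in NMuMG (SE 0.04, adjusted p = 6.9e-07), a ratio of 1.27. Lean over control was 1.32 in E0771 (ratio 2.50) and 0.53 in NMuMG (ratio 1.44). The rise over obese was larger in E0771 by 0.86 (SE 0.10, adjusted p = 2.55e-06).

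Prdx6 was also the gene called between obese and control in NMuMG, at 0.18 (SE 0.04, adjusted p = 0.0133), although obese replicate 2 and control replicate 1 overlapped. The call ended without control replicate 2 or 3 or obese replicate 1 or 3 (adjusted p from 0.0589 to 0.0872). In E0771 the same comparison gave 0.13 (95% interval 0.01 to 0.26, unadjusted p = 0.0628, adjusted p = 0.361). It was called only without the filter on low counts (adjusted p = 0.0438). The near-identical copies Prdx6b and Prdx6-ps2 had at most 2 and 0 counts in a library.

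**Figure D2:**
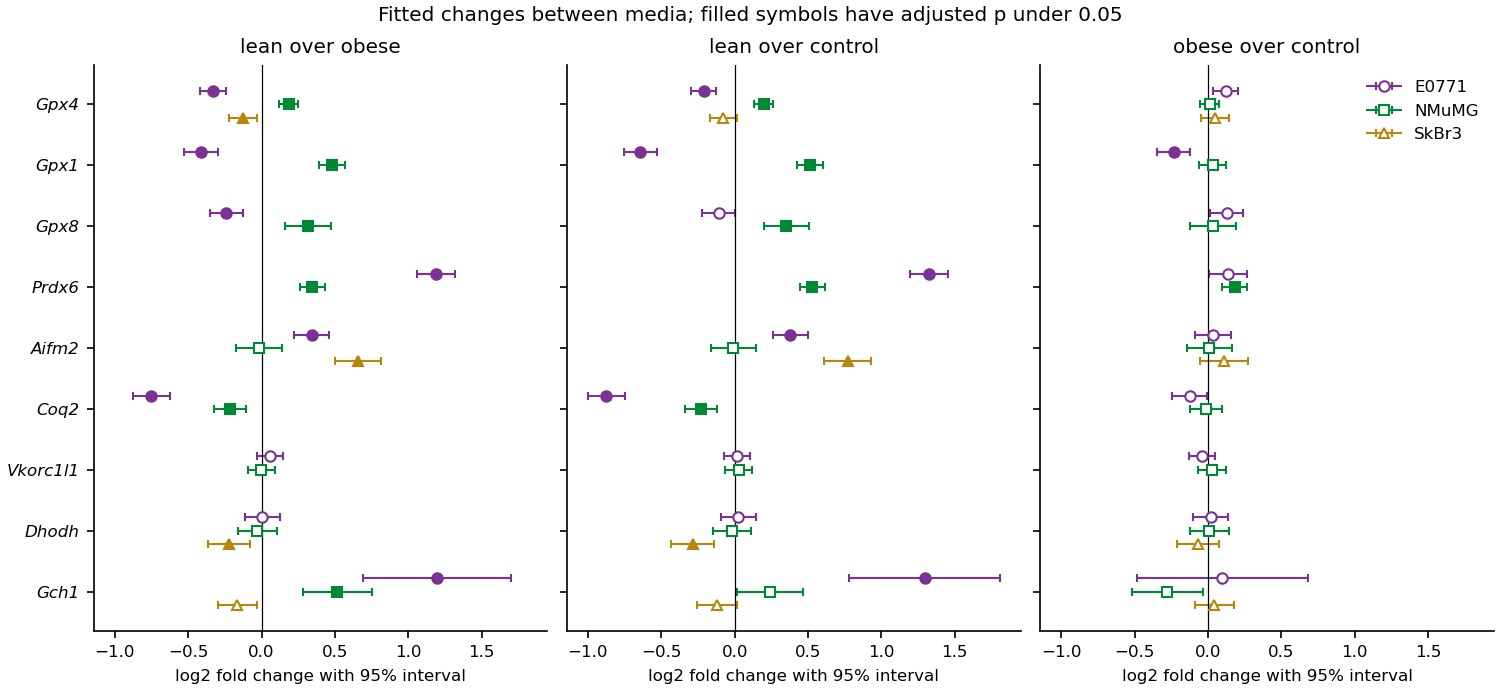
Fitted log2 fold changes (horizontal axes) with 95% intervals for the 9 genes in E0771 (circles), NMuMG (squares) and, for 4 genes, SkBr3 (triangles); filled symbols have an adjusted p under 0.05. In the left panel Gpx4, Gpx1 and Gpx8 lie below 0 in E0771 and above 0 in NMuMG, while Prdx6 and Gch1 lie above and Coq2 below 0 in both.

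The route through coenzyme Q did not move as 1 unit. Aifm2, which encodes FSP1, rose with lean secretome in E0771 and stayed between 14.5 and 18.1 CPM over all NMuMG libraries. E0771 libraries had 38.0, 33.9 and 34.8 CPM in control medium, 44.8, 47.0 and 48.1 with lean and 36.3, 34.3 and 39.1 with obese secretome. The 3 lean libraries were the highest 3. Lean was higher by 0.34 than obese (SE 0.06, adjusted p = 4.14e-05) and by 0.38 than control (SE 0.06, adjusted p = 1.07e-05). In NMuMG lean over obese was -0.02, with a 95% interval from -0.17 to 0.14, and the difference between lines was 0.38 (SE 0.10, adjusted p = 0.00267).

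Exons of Aifm2 overlap those of H2afy2 on the opposite strand in 233 of 4121 bases, and the strand setting of the counting is not given in the sources used here. H2afy2 was at 0 in E0771 with lean and obese secretome and averaged 0.0145 CPM in control medium. In NMuMG it averaged 29.3, 23.5 and 27.6 CPM (control, lean, obese) and lean over obese was -0.24 on the log2 scale (SE 0.06, adjusted p = 0.00176). The part of H2afy2 in the values of Aifm2 was not tested, and AIFM2 in SkBr3 was not checked for such an overlap.

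Coq2, the prenyltransferase that attaches the isoprenoid tail of coenzyme Q, fell with lean secretome in both lines. E0771 libraries had 68.6, 65.6 and 65.2 CPM in control medium, 38.1, 39.7 and 31.8 with lean and 60.9, 62.8 and 59.9 with obese secretome. NMuMG libraries had 40.5, 42.1 and 41.4 CPM in control medium, 35.0, 38.3 and 32.3 with lean and 40.7, 40.4 and 40.3 with obese secretome. The lean libraries were below all others in each line. The change over obese was -0.75 in E0771 (SE 0.06, adjusted p = 1.26e-09), a ratio of 0.594, and -0.21 in NMuMG (SE 0.06, adjusted p = 0.00280), a ratio of 0.862. The lines differed by -0.52 (E0771 minus NMuMG, SE 0.09, adjusted p = 6.56e-06). So in E0771 Aifm2, for an enzyme that uses coenzyme Q, rose while Coq2, of its synthesis, fell. Other genes of that synthesis went both ways there, as given below.

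Vkorc1l1, which reduces vitamin K and its epoxide, was not called in any comparison between media. It ranged from 79.7 to 88.2 CPM over the E0771 libraries and from 53.7 to 59.2 over the NMuMG libraries, with overlap of lean with control and with obese in each line. The 95% interval of lean over obese ran from -0.03 to 0.15 in E0771 and from -0.10 to 0.09 in NMuMG.

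Dhodh, the mitochondrial enzyme of pyrimidine synthesis, was also called in none of the mouse comparisons between media. It ranged from 36.4 to 41.8 CPM in E0771 and from 22.7 to 26.1 in NMuMG. Lean over obese was 0.01 in E0771 (95% interval -0.11 to 0.13) and -0.03 in NMuMG (95% interval -0.16 to 0.10). In each line the interval did not reach the fitted change of Gpx4 there, but Dhodh and Gpx4 were not tested against each other.

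Gch1, the first and rate-limiting enzyme of tetrahydrobiopterin synthesis, rose with lean secretome but from few reads. E0771 had 17 to 27 counts per library in control medium, 62 to 65 with lean and 19 to 33 with obese secretome. That is 0.88, 0.63 and 1.18 CPM, then 2.25, 2.25 and 2.09, then 1.30, 0.90 and 0.67. The lean libraries did not overlap the others. Lean over obese was 1.20 (95% interval 0.69 to 1.70, adjusted p = 0.000363), a ratio of 2.29.

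NMuMG libraries had 5.52, 5.02 and 6.11 CPM of Gch1 in control medium, 6.81, 6.34 and 6.50 with lean and 4.38, 4.50 and 4.72 with obese secretome. The 3 media did not overlap. Lean was higher than obese by 0.52 (SE 0.12, adjusted p = 0.000832). Lean over control was 0.24 (95% interval 0.02 to 0.46, adjusted p = 0.0963) and obese over control -0.28 (95% interval -0.52 to -0.04, adjusted p = 0.227). The difference between lines in lean over obese, 0.70 (SE 0.26, adjusted p = 0.0309), was lost without E0771 lean replicate 1 or 2, E0771 obese replicate 2 or 3, NMuMG lean replicate 2 or 3 or NMuMG obese replicate 3 (adjusted p from 0.0515 to 0.180), and without the filter on low counts (0.0504).

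SkBr3 shared the rise of Aifm2 seen in E0771. AIFM2 was at 23.2, 21.0, 22.5 and 22.3 CPM in control medium, at 40.5, 38.9, 31.1 and 44.8 with lean and at 26.1, 22.6, 23.3 and 24.6 with obese secretome. Every lean library lay above the 8 others, with lean replicate 3 the lowest of them. Means were 22.3 ± 0.931, 38.8 ± 5.73 and 24.1 ± 1.52 CPM (SD, n = 4 each). Lean was higher by 0.66 than obese (SE 0.08, adjusted p = 3.84e-06), a ratio of 1.58, and by 0.77 than control (SE 0.08, adjusted p = 3.32e-07), a ratio of 1.71. Without lean replicate 3 these values were 0.74 and 0.86. AIFM2 was the only 1 of the 4 genes whose lean libraries all lay outside the range of the others, as did 28.2% of all tested genes.

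DHODH was lower in SkBr3 with lean secretome, at 13.7 to 16.6 CPM against 16.5 to 18.8 in control medium and 15.6 to 17.7 with obese. The ranges overlapped through lean replicate 3, at 16.6. The log2 fold change was -0.29 over control (SE 0.07, adjusted p = 0.00284) and -0.22 over obese (SE 0.07, adjusted p = 0.0189). Without lean replicate 3 they were -0.34 and -0.28. The second call ended without lean replicate 2 (adjusted p = 0.0807) or obese replicate 1 (adjusted p = 0.0533).

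GPX4 in SkBr3 had 124.4, 128.1, 137.2 and 131.7 CPM in control medium, 135.0, 118.0, 133.7 and 121.0 with lean and 132.1, 129.3, 138.0 and 141.7 with obese secretome. The groups overlapped in each comparison. The change over obese was -0.13 (SE 0.05, adjusted p = 0.0341), a small change that lost its call without lean replicate 2 or 4 or obese replicate 3 or 4 (adjusted p from 0.0936 to 0.160). It was also not called with DESeq2 (adjusted p = 0.0615) or when the 2 groups were fitted alone (adjusted p = 0.0597). Lean over control was -0.08 (95% interval -0.17 to 0.02, adjusted p = 0.186), called without lean replicate 3 (adjusted p = 0.0471), where lean over obese was -0.16.

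GCH1 in SkBr3 lay between 23.0 and 27.9 CPM over all 12 libraries, and its lean, obese and control libraries overlapped. Lean over obese was -0.17 (95% interval -0.30 to -0.03, adjusted p = 0.0514). It passed the threshold without lean replicate 3 (adjusted p = 0.00276), without obese replicate 1 (adjusted p = 0.0425) or without the filter on low counts (adjusted p = 0.0468). Lean over control was -0.12 (adjusted p = 0.153), and 0.0149 was the adjusted p without lean replicate 3. The human and mouse tables were counted separately, so no test was made between SkBr3 and the mouse lines.

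**Figure D3:**
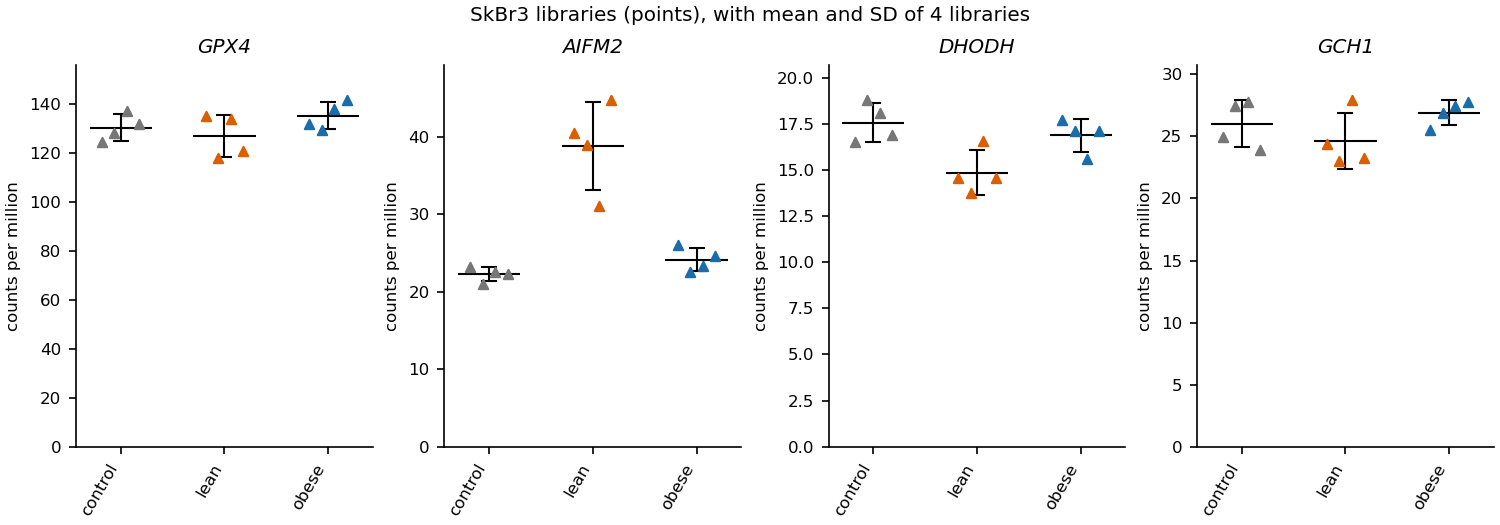
CPM (vertical axes, from 0) of GPX4, AIFM2, DHODH and GCH1 in each SkBr3 library (triangles) by medium, with the mean and SD of 4 libraries. AIFM2 is the gene whose 4 lean libraries, from 31.1 to 44.8, lie above all others.

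The medium effects differed between the 2 mouse lines for 7 of the 9 genes, both for lean over obese (34.2% of 16529 genes) and for lean over control (34.5%), and for 0 of 9 for obese over control (1.69%, by edgeR; DESeq2 also called 0). At an unadjusted p under 0.05, which 13.2% of all genes passed, 2 of the 9 differed in obese over control, Gpx4 and Gpx1. Gpx1 was called there without E0771 lean replicate 2 or 3 or NMuMG obese replicate 2 (adjusted p from 0.0181 to 0.0463), and without the filter on low counts (adjusted p = 0.0124). For lean over obese, 6 of the 9 genes were called in both lines: Gpx4, Gpx1 and Gpx8 in opposite directions and Coq2, Gch1 and Prdx6 in the same direction. Over all genes, 2834 of 12433 tested in both lines were called in both, and 36.0% of those went in opposite directions. Dhodh and Vkorc1l1 were the 2 without a called difference, with 95% intervals from -0.13 to 0.23 and from -0.06 to 0.20.

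All lean libraries lay outside the range of the 6 control and obese libraries for 6 of 9 genes in E0771 (50.7% of all genes) and for 6 of 9 in NMuMG (34%). Gpx4, Gpx1, Coq2, Gch1 and Prdx6 were in both sets, Aifm2 in that of E0771 and Gpx8 in that of NMuMG.

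In control medium the lines already differed in 8 of the 9 genes, where 80.5% of all genes differed. Lower in E0771 than in NMuMG were Gch1 (log2 difference -2.76, SE 0.19, adjusted p = 5.73e-17), Gpx4 (-0.99, SE 0.04, adjusted p = 7.58e-25) and Gpx1 (-0.50, SE 0.06, adjusted p = 1.18e-09). Higher were Gpx8 (1.52), Aifm2 (0.99), Coq2 (0.58), Dhodh (0.56) and Vkorc1l1 (0.46), with adjusted p-values from 4.48e-23 to 3.19e-10. Prdx6 differed by -0.03, with a 95% interval from -0.16 to 0.11. Insulin and a glucose level are given for the NMuMG medium only, so line and growth medium cannot be told apart.

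Levels were compared between genes as RPKM, which is CPM divided by the exon length in kilobases. The length is that of all exons of a gene in GENCODE M21, merged over its transcripts, whichever transcripts were expressed. The order between genes depends on these lengths: by CPM, Prdx6 (203.4) lay above Gpx4 (162.3) in E0771 control medium. In E0771 control medium the order was Gpx4 at 94.2 ± 6.21, Gpx1 at 60.5 ± 0.658, Prdx6 at 42.3 ± 1.94, Gpx8 at 41.4 ± 1.58, Coq2 at 25.3 ± 0.701, then Vkorc1l1 at 15.8, Aifm2 at 8.63, Dhodh at 6.17 and Gch1 at 0.143 (SD, n = 3 each). The neighbours Prdx6 and Gpx8 overlapped. In NMuMG it was Gpx4 at 173.2 ± 1.25, Gpx1 at 79.2 ± 2.70, Prdx6 at 40.0, Coq2 at 15.7, Gpx8 at 13.4, Vkorc1l1 at 10.6, Aifm2 at 4.01, Dhodh at 3.86 and Gch1 at 0.888. There Aifm2 and Dhodh overlapped. With lean secretome Prdx6 stood first in E0771, at 106.7 ± 6.43 RPKM against 81.9 ± 1.97 for Gpx4 (SD, n = 3 each), while Gpx4 stayed first in NMuMG at 198.4 ± 4.44.

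Other genes of the same pathways were read from 6 lists. Of 13 genes of coenzyme Q synthesis and handling, 3 rose and 5 fell in E0771 with lean against obese secretome, and 2 rose and 2 fell in NMuMG. Over all genes 52.7% were called in E0771 and 35% in NMuMG, and the counts of every list are read beside these shares. The median log2 fold change of the list was -0.05 in E0771 and 0.04 in NMuMG, beside 0.0035 and -0.0023 over all genes. In E0771 the largest called changes were those of Coq8a (-0.99, SE 0.23, adjusted p = 0.000977), an atypical kinase of the synthesis complex read at 1.02 CPM with lean, Coq9 (-0.76, SE 0.06, adjusted p = 1.14e-10), which carries lipid precursors, and Coq10a (-0.59, SE 0.09, adjusted p = 5.05e-06), a coenzyme Q binding protein. In NMuMG Pdss1, a subunit of the enzyme that makes the tail, fell by 0.34, Coq7, a hydroxylase, fell by 0.27, and Coq8b, a kinase of the same family as Coq8a, rose by 0.31. Coq2 in E0771 thus fell beside Coq9, Coq8a and Coq10a, while Pdss1 (0.27) and Coq10b (0.42) were among the 3 listed genes that rose there.

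Of the tetrahydrobiopterin genes, 2 rose and 2 fell of 5 tested in E0771, and 4 rose and 0 fell of 6 in NMuMG, with medians of -0.03 and 0.17. Over all genes 25.8% rose and 26.9% fell in E0771, and 17.6% rose and 17.4% fell in NMuMG. In E0771 Pts, which acts after GCH1, fell (-0.86, SE 0.13, adjusted p = 2.18e-05), as did Pcbd2 (-0.42), while Qdpr, which regenerates tetrahydrobiopterin, rose (0.27, SE 0.05, adjusted p = 9.77e-05). In NMuMG Gchfr, the feedback regulator of GCH1, rose by 0.45 (adjusted p = 0.00296), Pcbd1 by 0.20 and Pcbd2 by 0.30. The Pcbd2 call in NMuMG (adjusted p = 0.0371) ended without lean replicate 2 or 3 or obese replicate 1 or 2 (adjusted p from 0.0848 to 0.168), with DESeq2 (0.0679) and with the 2 groups fitted alone (0.0533).

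The other glutathione peroxidases were mostly too low to test. Gpx2, Gpx5, Gpx6 and Gpx7 failed the filter in both lines, and Gpx3 in E0771. Among the peroxiredoxins, Prdx1 rose with lean over obese secretome in E0771 (0.40, SE 0.04, adjusted p = 7.12e-08) and NMuMG (0.54, SE 0.08, adjusted p = 0.00185), and Prdx4, the endoplasmic reticulum member, fell in both (-0.26 and -0.36). Over the list 2 rose and 1 fell of 5 in E0771, and 1 rose and 2 fell of 6 in NMuMG, with medians of -0.06 and -0.09. The small changes of Prdx3 in E0771 (0.12, adjusted p = 0.0285) and Prdx5 in NMuMG (-0.11, adjusted p = 0.0101) kept their direction but not their calls when single libraries were left out. Prdx3 lost its call without lean replicate 1 or 2 or any obese library (adjusted p from 0.0521 to 0.139), and Prdx5 without lean replicate 3 or obese replicate 3 (0.0541 and 0.0733).

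Nqo1, a quinone reductase that can act on vitamin K and coenzyme Q, had the largest fold of any listed gene in each mouse line. It averaged 178.6 CPM with lean and 65.1 with obese secretome in E0771 (log2 fold change 1.45, SE 0.37, adjusted p = 0.0161), and 7.95 and 2.18 CPM in NMuMG (1.87, SE 0.46, adjusted p = 0.0204). The E0771 call was lost without obese replicate 3 (adjusted p = 0.0575), and the NMuMG call without any lean library or obese replicate 3 (0.0560 to 0.0663). With the 2 groups fitted alone neither was called (0.0551 and 0.0613). Nqo2, its relative, fell in both lines (-0.38 and -0.22), and Vkorc1 and Ggcx of the vitamin K cycle were not called, so 1 gene rose and 1 fell of 4 in each line (medians -0.09 and 0.05).

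Beside Dhodh, 2 of 2 other genes of pyrimidine synthesis were called for lean over obese in E0771 and 1 of 2 in NMuMG. Cad, which starts the pathway, was higher with lean than with obese secretome in E0771 (0.27, SE 0.04, adjusted p = 4.33e-06). In NMuMG it was lower (-0.20, SE 0.04, adjusted p = 0.000296). Umps, which ends the pathway, was higher with lean than with obese in E0771 (0.41, SE 0.04, adjusted p = 2.9e-09) and was not called in NMuMG. Cad in E0771 was also lower with obese secretome than in control medium (-0.19). For lean over control 1 of the 2 genes was called in each line, higher in each. Over all genes 56.3% were called there in E0771 and 38.2% in NMuMG.

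Of 5 other genes tied to lipid peroxidation, all 4 tested in E0771 and 4 of 5 in NMuMG were called higher with lean than obese secretome. Over all genes 25.8% and 17.6% were called higher. Txnrd1, the cytosolic thioredoxin reductase and a selenium enzyme like GPX4, rose by 0.73 in E0771 (SE 0.10, adjusted p = 0.000787) and 0.55 in NMuMG (SE 0.11, adjusted p = 0.00978). Pla2g6, a phospholipase that cuts oxidised fatty acids from phospholipids, rose by 0.53 (SE 0.06, adjusted p = 1.51e-07) and 0.41 (SE 0.04, adjusted p = 5.82e-09). Of the acyltransferases that place monounsaturated fatty acids in phospholipids, Mboat2 rose by 0.41 in NMuMG (adjusted p = 0.000247). Mboat1 rose by 0.44 in E0771 (adjusted p = 0.0185), a call lost without lean replicate 1 or obese replicate 2 (adjusted p = 0.0541 and 0.0622). Dhcr7 uses up a sterol that itself traps radicals and so differs in role from the others. It was higher with lean than with obese secretome, by 0.25 in E0771 (adjusted p = 0.00191) and 0.15 in NMuMG (adjusted p = 0.0123). In E0771 Dhcr7 was also lower with obese secretome than in control medium (-0.31). For lean over control, 3 of 4 listed genes were called in E0771 and 4 of 5 in NMuMG, all higher. Over all genes 56.3% and 38.2% were called there. The median of the list for lean over obese was 0.48 in E0771 and 0.41 in NMuMG. Txnrd1 rose and Gpx4 and Gpx1 fell in E0771, so the selenium enzymes named here did not share a direction in that line.

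**Figure D4:**
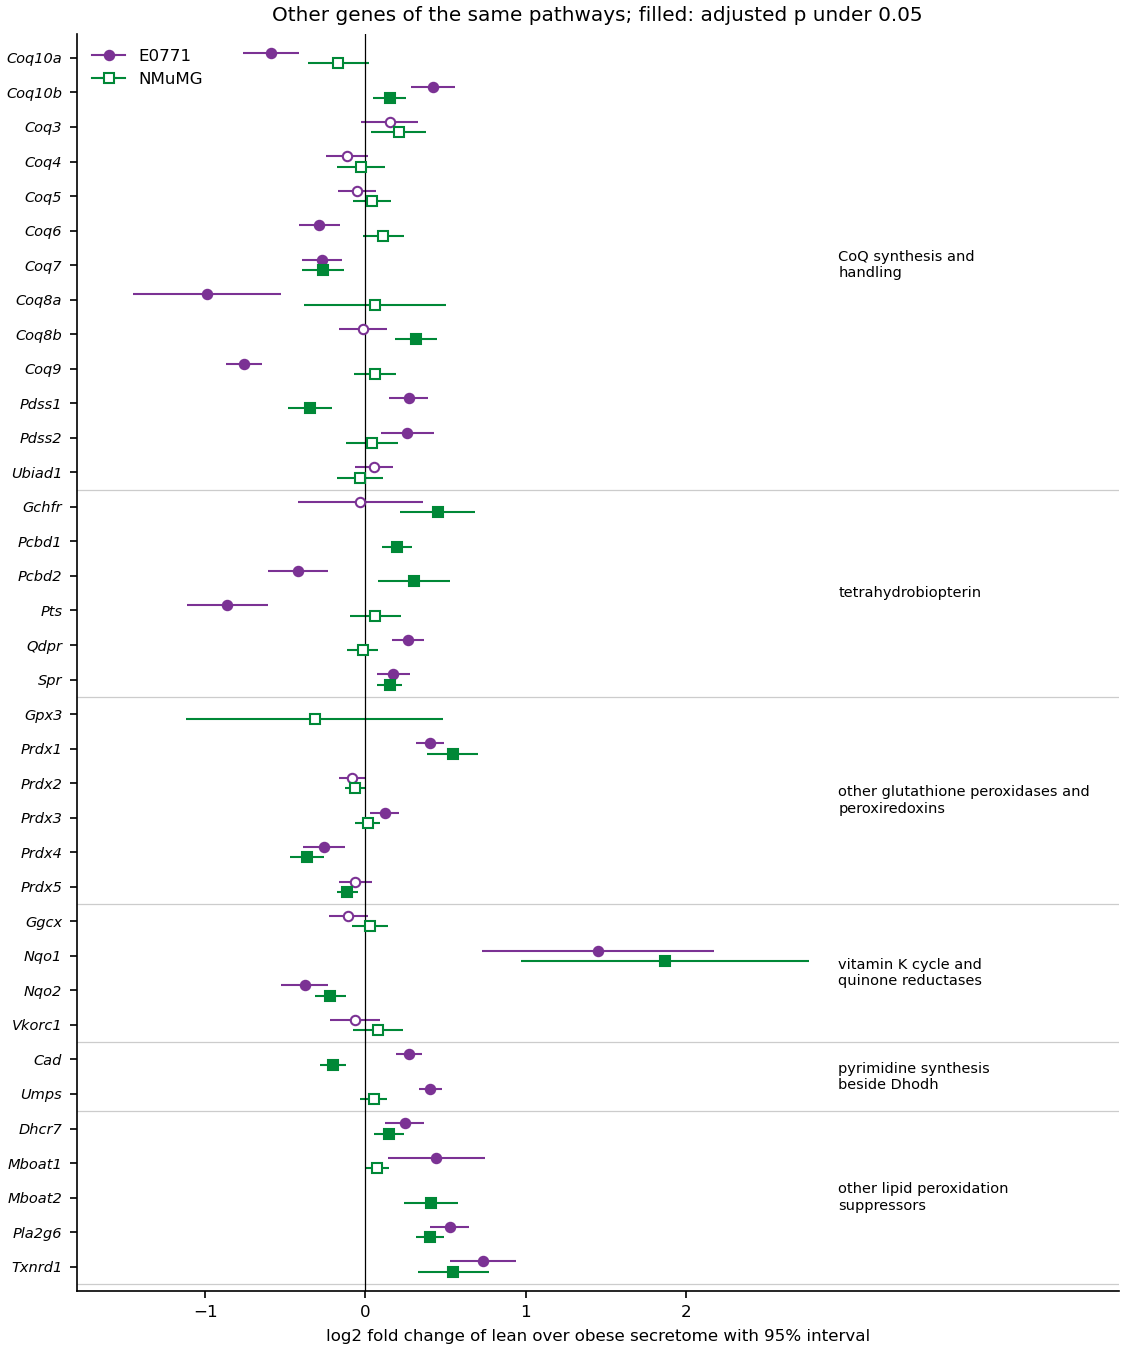
Log2 fold change of lean over obese secretome (horizontal axis) with 95% intervals for the listed pathway genes tested in E0771 (circles) and NMuMG (squares), grouped by list; filled symbols have an adjusted p under 0.05. Of 33 genes tested in both lines, 7 were higher in both, 3 lower in both and 3 opposite.

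Over the 6 lists, 40 genes were listed and 33 tested in both lines, of which 13 were called in both for lean over obese. Over all genes 22.8% of 12433 were called in both, and 36.0% of those went opposite ways. Coq10b, Dhcr7, Nqo1, Pla2g6, Prdx1, Spr and Txnrd1 were higher in both, Coq7, Nqo2 and Prdx4 lower in both, and Cad, Pcbd2 and Pdss1 opposite. Between obese secretome and control medium the listed genes called were Cad (-0.19, adjusted p = 0.0124) and Dhcr7 (-0.31, adjusted p = 0.00759) in E0771, and Gchfr (0.43, adjusted p = 0.0453) and Ggcx (-0.20, adjusted p = 0.0307) in NMuMG. Each of these 4 calls was lost without 1 or more single libraries. Cad lost it without control replicate 1 or 2 or obese replicate 3 (adjusted p from 0.0748 to 0.145), Dhcr7 without obese replicate 3 (0.0857), and Ggcx without control replicate 1 or 2 or obese replicate 1 or 3 (0.0752 to 0.182). Gchfr lost it without any control library, lean replicate 2 or obese replicate 1 or 3 (0.0537 to 0.246), with DESeq2 (0.0743) and with the 2 groups fitted alone (0.0522). Among the genes called in both lines, Spr in E0771 lost its call of lean over obese without lean replicate 2 (0.0633), and Coq10b in NMuMG without lean replicate 3 or obese replicate 2 or 3 (0.0576 to 0.141).

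The genes whose profile over media was most like that of Gpx4 were found by the root mean square difference of log2 CPM, each gene set to its own mean within a line, over 18 libraries. Of 7759 genes whose log2 CPM averaged 4 or more, the 5 nearest were Tnfrsf1a (0.0347), Ifitm2 (0.0470), Atxn10 (0.0493), Ptk2b (0.0504) and Os9 (0.0507), where the profile of Gpx4 itself had a root mean square of 0.123. Tnfrsf1a encodes a tumour necrosis factor receptor, and Os9 a lectin of endoplasmic reticulum quality control. Each fell in E0771 with lean over obese secretome and rose in NMuMG, as the measure selects. Gpx8 came at rank 262 (0.0838) and Gpx1 at rank 4478 (0.179). Gpx1 had larger deviations and, in E0771, stood higher in control medium (0.29) than with obese secretome (0.06), the reverse of Gpx4. Dhodh (rank 2201) and Vkorc1l1 (rank 2290), which were not called between media, lay nearer to Gpx4 than Gpx1 did by this measure. Prdx6 was at rank 7711 and Coq2 at 6802. Gch1 was below the level needed to be ranked.

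**Figure D5:**
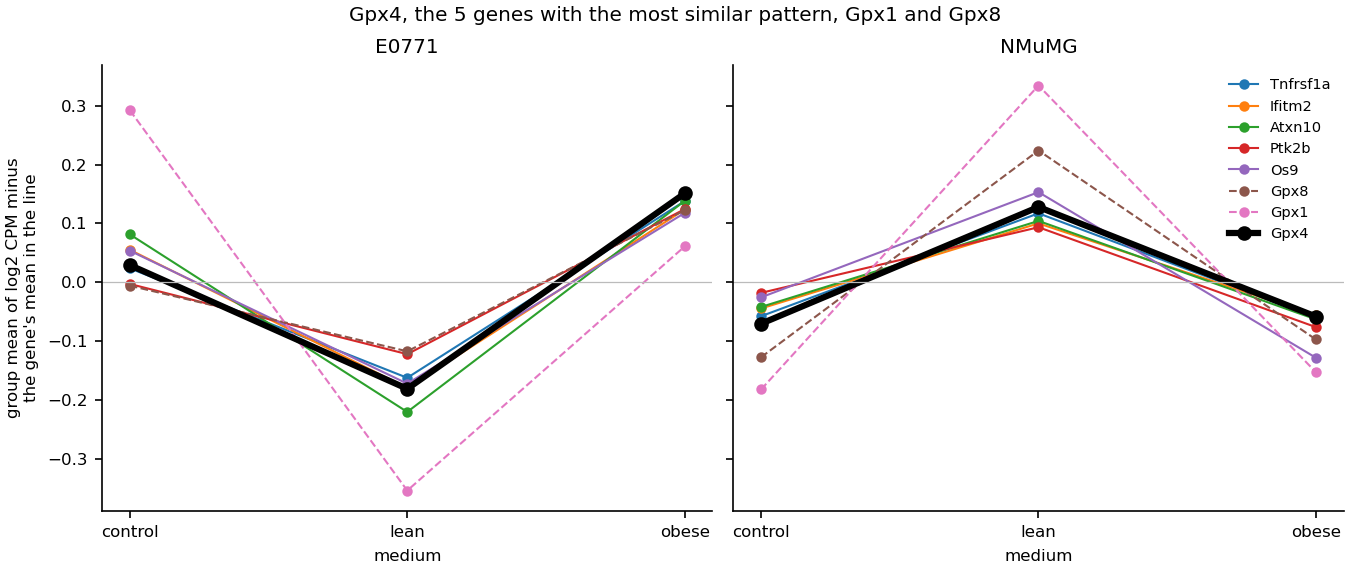
Group means of log2 CPM minus the gene's mean in the line (vertical axis) by medium in E0771 (left) and NMuMG (right), for Gpx4 (thick line), its 5 nearest genes (thin lines) and Gpx8 and Gpx1 (dashed lines). Gpx4 lies at -0.18 with lean secretome in E0771 and at 0.13 in NMuMG.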

How the data were processed

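RNA-seq of poly(A) RNA was done on 30 libraries of 3 cell lines in 3 media. The authors deposited raw counts per Ensembl gene ID, a mouse table of 18 libraries and a human table of 12, per the file headers. Reads were paired, 150 bp long and from a directional kit, per the labels' protocols. The submitters' processing notes name cutadapt 1.16, STAR 2.7.9a, featureCounts 1.6.3 and the build GRCm39. The human build, the annotation release and the strand setting are not given in the sources used here. Totals are whole numbers that differ between libraries.

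Libraries were grouped by line and medium from the labels. Nothing says that replicates came from separate cultures, so p-values measure only the spread between these libraries, which may be technical. Each line was fitted with its 3 media in edgeR 4.0.16 (R 4.3.3, limma 3.58.1) by the robust quasi-likelihood F test after filterByExpr and TMM scaling. Benjamini-Hochberg adjustment ran over all genes tested in a comparison, with 0.05 as the threshold of a call. Effects of media were compared between the mouse lines by interaction terms, with all 18 mouse libraries fitted together. SE is the log2 fold change divided by the root of F, and 95% intervals are 1.96 SE to each side. The factor 1.96 is that of a normal distribution, so these intervals are narrower than the F test implies. An interval can thus lie wholly above or below no change at an unadjusted p above 0.05. CPM are counts scaled to a common library total. The steps were tested on simulated data. Those held far fewer changed genes than were called in the lean comparisons, so such large shares were not covered.

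Replicate numbers were checked for pairing: residuals of same-numbered libraries of different media correlated between -0.09 and 0.11 in E0771, -0.03 and 0.03 in NMuMG and -0.05 and 0.05 in SkBr3, so they were not used as pairs. Alternatives were DESeq2 1.42.0, its size factors, 2 other filters, 2 groups fitted alone, a replicate block and leaving out each library.

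Mouse symbols matched 52073 of 56980 IDs, holding 99.7% of the mouse counts. Human IDs were those of the 4 genes. Exon lengths and coding sequences came from GENCODE M21 and promoters from RefSeq, both on GRCm38, used for names, lengths and sequence only. Of the 9 mouse genes, 7 had an entry in the promoter table. The genes, lists and tests were chosen with earlier results of these data known. All 9 mouse and 4 human genes are named, as are in each list and line up to 3 called genes of largest change of lean over obese, and the 5 genes nearest Gpx4. A further gene of the lists is not reported here. Genes called in both lines or between obese and control are named in addition.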

Additional observations from a re-analysis of the deposited data

Results flagged for a closer look

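The medium effects that differed between the mouse lines are singled out here because the difference itself was called in the fit of both lines. They are given as E0771 minus NMuMG on the log2 scale. For lean over obese secretome the differences were -0.50 for Gpx4, 0.38 for Aifm2, 0.70 for Gch1, -0.52 for Coq2, -0.88 for Gpx1, -0.54 for Gpx8 and 0.86 for Prdx6. For lean over control they were -0.38 for Gpx4, 0.41 for Aifm2, 1.08 for Gch1, -0.62 for Coq2, -1.13 for Gpx1, -0.44 for Gpx8 and 0.82 for Prdx6. The comparisons share the lean libraries. Gpx1 had the largest difference among the glutathione peroxidases in each. The growth media given for the lines also differ, so line and growth medium cannot be told apart. No library of GPX4, AIFM2, DHODH or GCH1 in SkBr3, tested in each of the 3 media, lay far from its group by Dixon's criterion.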

How the results depend on the processing

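Of 53 called values of the 9 mouse and 4 human genes, 48 kept their direction and call under every alternative run, as did 31 of 43 called values of listed genes. Of 49 values not called, 25 changed sign in some alternative. The other scalings moved the median of all genes by at most 0.0102. The cause of the changes below was not tested. Gch1 in E0771 rested on few counts.

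For obese over control in E0771, dropping the filter on low counts gave 2 of the 9 genes and 626 genes in all (1 and 360 with it). The interaction of that comparison then gave 1 gene (0 with it). In SkBr3 it called 384 genes with DESeq2, 539 with no filter and 849 with the 2 groups fitted alone (172 otherwise). Vkorc1l1 in NMuMG, lean over obese, changed sign with DESeq2 (0.00178), its size factors (0.00186) and the filter at 1 CPM (0.00234).

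With single libraries left out, obese over control gave 0 to 1 of the 9 genes in each mouse line and in their interaction, and 79 to 601, 384 to 893 and 20 to 655 genes in all in E0771, NMuMG and SkBr3. The libraries that moved these totals by over 1.5 times were control replicates 1 and 2, lean replicate 3 and obese replicates 1 and 3 in E0771, control replicates 1 and 2 and obese replicates 1 and 3 in NMuMG, and in SkBr3 every control library, lean replicates 3 and 4 and obese replicates 1, 2 and 4. SkBr3 gave 1 to 4 of its 4 genes for lean over obese (1 without lean replicate 2) and 2 to 4 for lean over control (4 without lean replicate 3). Of the 25 values that changed sign in some alternative, those printed above were of lean over obese for Dhodh in E0771 (-0.0284 to 0.0565) and in NMuMG (-0.0940 to 0.0266), Aifm2 (-0.0945 to 0.0498) and Vkorc1l1 (-0.0370 to 0.0376) in NMuMG, and the Dhodh difference between lines (-0.000949 to 0.117). Also printed above were Gpx4 in NMuMG for obese over control (-0.00815 to 0.0352) and Prdx6 between the lines in control medium (-0.0614 to 0.0114).

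Replicate numbers were not used as pairs, though with so few libraries in a group the check of residuals cannot exclude pairing. With a replicate block, 4 SkBr3 genes were called for lean over obese in place of 3 (GCH1 at an adjusted p of 0.0404), Gchfr in NMuMG lost its call of obese over control (adjusted p = 0.0540), and SkBr3 obese over control had 223 genes called in all. The other counts stayed within 1.5 times. For the 5 genes nearest Gpx4, alternatives (DESeq2 size factors, each library left out) were added after seeing the data, and each root mean square moved by less than the gene's SD between replicates.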
